A study of Mus musculus with 12 samples.

Results

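Star strands are the miRNAs that the array names with a trailing asterisk, the strand of a hairpin once annotated as the less abundant one. All mouse names ending in an asterisk were taken, except those of the repeat families miR-297, miR-466 (with miR-467) and miR-669. This gave 111 star strands of 611 mouse miRNA names, and 4 further names with an asterisk fell to the exception. Of the 111, 100 had a guide strand under the same name without the asterisk, and 11 had none.

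A miRNA hairpin is cut by Drosha and Dicer into a short duplex. One strand, the guide, is usually loaded into an Argonaute protein and directs repression through its seed, and the other, the passenger or star strand, is usually degraded. Some passenger strands are loaded too, and either strand can be the major one. Because both arms come from one transcript, a change in transcription is expected to move both, whereas a change in strand choice or stability can move one alone.

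The study measured miRNAs in C57BL/6 mouse embryonic fibroblasts that were wild type (ATF4WT) or deficient (ATF4KO) for ATF4, a transcription factor of the integrated stress response. Cells of each genotype were left untreated or were given 2 ug/mL tunicamycin, which blocks N-linked glycosylation and causes endoplasmic reticulum stress, for 12 or 24 h. Each of the 6 groups had 2 arrays, described by the submitters as separate experiments, on a single-colour Agilent miRNA platform. All groups, controls included, were grown in medium with 2-mercaptoethanol and added non-essential amino acids. Whether each genotype came from 1 or several embryos is not given in the sources used here. The 4 untreated arrays lay on one slide and the 8 tunicamycin arrays on another, so that treatment and slide cannot be told apart. Replicate 1 and replicate 2 of each slide were scanned on different dates. All wild-type arrays lay in row 1 of their slide and all ATF4KO arrays in row 2, so that genotype and row cannot be told apart either.

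The fibroblast label was checked against marker miRNAs. Of 9 fibroblast markers, 8 were well above background on at least 1 array and 6 on all 12, and miR-145 on none. None of 6 epithelial or 4 neural markers reached that level on any array, and 1 of 7 blood and endothelial, 1 of 4 muscle and 1 of 9 pluripotent markers did. The scaled signal summed over the fibroblast list ran from 23.1 to 48.9 over the arrays. The sums of the other lists reached at most 0.199, and the lists are not ranked by level, since their probes differ.

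The sequences of the star strands on which the results turn are shown first, each 5′ to 3′ from RefSeq with hairpin positions on GRCm38.p6, with the seed (bases 2 to 8) in capitals. The array files hold no probe sequences, so the arms were assigned from the names. Of the 20 star strands well above background on any array, 18 were matched. miR-199b* and miR-299* are named only.

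The first set shows both strands of 2 hairpins for which each strand had lower estimates in ATF4KO cells, with miR-17*, which was measured without its guide:
miR-31*: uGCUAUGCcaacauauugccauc
miR-31: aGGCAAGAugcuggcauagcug
miR-29b*: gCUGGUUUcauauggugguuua
miR-29b: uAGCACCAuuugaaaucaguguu
miR-17*: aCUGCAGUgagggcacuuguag

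miR-31* lies on the minus strand at chr4:88910577-88910599, in the hairpin Mir31. miR-29b* is the arm of Mir29b-1, on the minus strand at chr6:31063067-31063088, whereas the mature miR-29b is encoded by Mir29b-1 and Mir29b-2 alike. miR-17* lies on the plus strand at chr14:115043721-115043742.

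The second set shows 2 pairs of star strands with a shared seed, miR-214*, whose guide moved while it stayed at the lower limit, and miR-140*, which was detected on every array:
miR-30a*: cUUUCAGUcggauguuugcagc
miR-30e*: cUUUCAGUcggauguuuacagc
miR-24-1*: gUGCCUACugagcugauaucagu
miR-24-2*: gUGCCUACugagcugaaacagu
miR-214*: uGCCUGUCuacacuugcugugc
miR-140*: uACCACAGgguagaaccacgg

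miR-30a* and miR-30e* share the seed UUUCAGU, and miR-24-1* and miR-24-2* share UGCCUAC.

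The third set shows the star strands that were highest on the replicate 2 tunicamycin arrays:
miR-877*: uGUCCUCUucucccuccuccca
miR-483*: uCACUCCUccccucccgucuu
miR-485*: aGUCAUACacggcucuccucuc
let-7d*: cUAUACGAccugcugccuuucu
let-7b*: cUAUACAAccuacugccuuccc

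Most star strands were not detected. A miRNA counted as well above background where at least 50% of the spots of a probe carried the scanner software's flag. On this definition 20 star strands (18.0%) were detected on at least 1 of the 12 arrays and 91 on none. The number per array ran from 4 of 111 on the first ATF4KO 24 h array to 14 of 111 on the second, that is from 3.60% to 12.6%. The other 500 mouse names ran from 17.6% to 30.0%. These same 2 ATF4KO 24 h arrays held the lowest and highest shares in both classes.

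**Figure D1:**
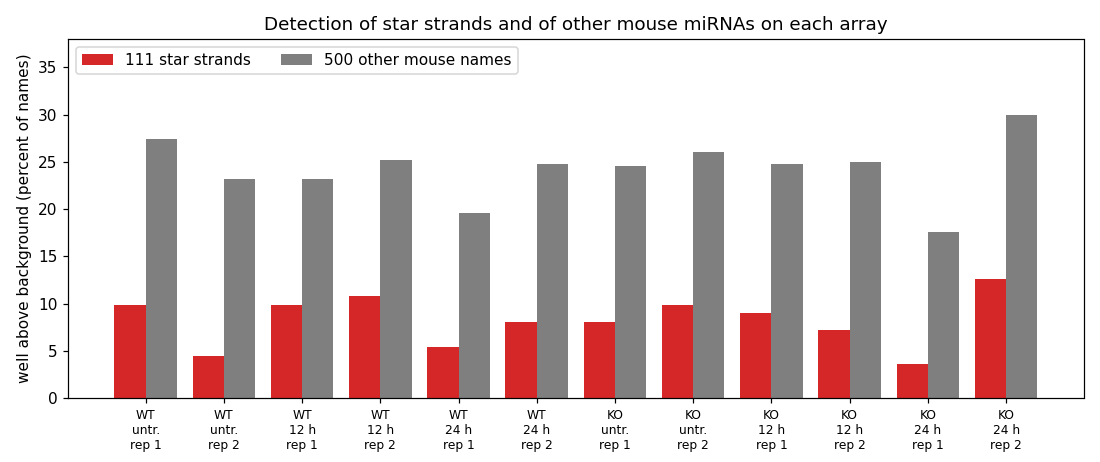
Percent of names well above background on each of the 12 arrays, for the 111 star strands (red bars) and the 500 other mouse names (grey bars). The red bars lie between 3.60% and 12.6% and below the grey bar on every array.

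Only 3 star strands, miR-140*, miR-199b* and miR-31*, were detected on all 12 arrays. miR-17* and miR-29b* were detected on 10 arrays, miR-30a* and miR-877* on 7, miR-30e* on 6, miR-24-1* and miR-483* on 5. let-7d*, miR-485* and miR-674* were detected on 4 arrays, let-7b* on 3, and miR-135a*, miR-214* and miR-24-2* on 2. let-7g*, miR-186* and miR-299* were each detected on 1 array.

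A miRNA entered the tests where both arrays of at least 1 group were well above background. This held for 10 star strands (9.01%) and for 135 of the 500 other mouse names (27.0%). miR-24-1*, miR-214* and miR-30e* entered only through the untreated ATF4KO group. Of the 100 guides of the same name, 44 entered, and the guides of 35 never-detected star strands were among them. Of 40 exact pairs only 1 strand was tested, and in 6 pairs both were: miR-140, miR-214, miR-29b, miR-30a, miR-30e and miR-31. Among the 65 stems that the array names by -5p and -3p, both arms were tested in 4 and 1 arm in 14.

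For 7 detected star strands the guide was well above background on no array. These were miR-17*, miR-135a*, miR-186*, miR-299*, miR-483*, miR-485* and miR-674*. miR-17 was at the lower limit on all 12 arrays although miR-17*, from the same hairpin of the miR-17-92 cluster, was detected on 10. Whether the miR-17 probe worked on these arrays cannot be told from the files, so the floor values of miR-17 do not show its absence. For 12 detected star strands the guide was well above background on all 12 arrays.

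By the hairpins' known roles, 24 star strands of hairpins abundant in fibroblasts were on the array, of which 10 were detected and 6 tested. Of 15 star strands of hairpins linked in published work with the unfolded protein response, 4 were detected and all 4 were tested (miR-30a*, miR-30e*, miR-199b* and miR-214*). Of 13 from proliferation clusters only miR-17* was detected, and of 13 from the imprinted Dlk1-Dio3 region only miR-299* and miR-485* were detected and neither was tested.

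Levels are given as log2 scaled signal: the summed probe signal relative to the 75th percentile, on that array, of the 82 miRNAs detected on all 12. Values under a floor of 0.0328 were set to it, which is -4.93 on the log2 scale. A log2 difference of 1 is a 2-fold change. Levels of different miRNAs are not compared, since each probe has its own response. In what follows, the 2 values of a group are those of replicates 1 and 2, and ± gives the standard error of the limma fit.

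The clearest genotype differences were in miR-31* and miR-199b*, which moved in opposite directions. Of the 10 tested star strands, 3 differed between ATF4KO and wild-type cells at 12 h of tunicamycin (1 higher, 2 lower), against 14.5% higher and 10.3% lower among all 145 miRNAs tested. At 24 h, 1 was lower and none higher, against 7.59% each way among the 145. Without treatment, 1 was higher and none lower, against 6.90% higher and 25.5% lower; that star strand, miR-24-1*, had entered the tests only through the group in which it was high. The median difference of the tested star strands was -0.04 at 12 h, 0.04 at 24 h and -0.20 untreated, beside 0.04, 0.00 and -0.49 over all 145. miR-214*, at the floor on all 12 arrays, counted as 0 in each star median, and other star strands lay near the floor. All tests are limma with Benjamini-Hochberg adjustment over the 145, and a call is an adjusted p under 0.05. Every call of miR-31*, miR-199b* and miR-17* below was lost with normexp background correction, in the deposited value table, without scaling and under each of the 3 other scalings. No sign turned, but some differences came near 0: with normexp miR-17* at 12 h was -0.24 and miR-31* at 12 h -0.29, and in the deposited table miR-31* at 24 h was -0.04. Guide calls rested on the scaling too. With quantile normalization or a 75th percentile over every miRNA, 0 of the 145, guides included, were called between genotypes at 12 or 24 h. With that 75th percentile 1 was called higher and 0 lower untreated, and 0 in the wild-type 12 h response and the 12 h response difference. In such bulk samples, fewer cells of a kind and less RNA per cell cannot be told apart.

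miR-31 is a fibroblast and epithelial miRNA whose hairpin lies next to the Cdkn2a locus. miR-31* stood at -2.77 and -2.95 in untreated wild-type cells, -2.30 and -2.92 at 12 h, and -2.41 and -2.42 at 24 h. The ATF4KO arrays gave -3.24 and -3.27 untreated, -3.48 and -3.45 at 12 h, and -3.41 and -3.44 at 24 h. Every ATF4KO array was below every wild-type array.

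miR-31* was lower in ATF4KO cells by -0.86 ± 0.18 at 12 h (limma, adjusted p = 0.0183) and by -1.01 ± 0.18 at 24 h (adjusted p = 0.0120). The untreated difference of -0.39 ± 0.18 did not pass (adjusted p = 0.133). Within replicate 1 the difference was -0.47 untreated, -1.18 at 12 h and -1.003 at 24 h, and within replicate 2 it was -0.32, -0.53 and -1.02. With scan date as a block the calls held at 12 h (adjusted p = 0.0306) and at 24 h (adjusted p = 0.0269). The 12 h call was lost without either ATF4KO 12 h array (differences -0.87 to -0.84), and the 24 h call without either wild-type 24 h array (-1.02 to -1.01). The 24 h difference was -0.10 with Agilent's total gene signal in place of the sum of probes, and -0.04 in the deposited value table.

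The guide was lower as well. miR-31 ran from -1.14 to -0.72 on the 6 wild-type arrays and from -1.96 to -1.62 on the 6 ATF4KO arrays, with no overlap. Its difference was -0.86 untreated (limma, adjusted p = 0.00843), -0.95 at 12 h (adjusted p = 0.00580) and -0.95 at 24 h (adjusted p = 0.00905). The change of star minus guide was 0.47 ± 0.16 untreated (adjusted p = 0.0604), 0.10 ± 0.16 at 12 h (adjusted p = 0.898) and -0.07 ± 0.16 at 24 h (adjusted p = 0.946). With scan date as a block the untreated value passed (limma, adjusted p = 0.0317), in a fit that called 50 of the 145 miRNAs untreated. As it did not pass in the main fit, no difference between the strands is drawn from it.

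miR-199b belongs to the miR-199 family, abundant in mesenchymal cells. miR-199b* stood at -1.08 and -1.05 in untreated wild-type cells, -1.998 and -1.71 at 12 h, and -1.46 and -1.90 at 24 h. On the ATF4KO arrays the values were -0.31 and -0.33 untreated, -0.64 and -0.74 at 12 h, and -0.53 and -1.24 at 24 h. The genotypes did not overlap at any time, although the second ATF4KO 24 h array lay below the untreated wild-type arrays.

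miR-199b* was higher in ATF4KO cells at 12 h by 1.16 ± 0.24, or 2.24-fold (limma, adjusted p = 0.0183). The differences of 0.75 ± 0.24 untreated (adjusted p = 0.0514) and 0.80 ± 0.24 at 24 h (adjusted p = 0.0763) did not pass. Within replicates 1 and 2 the 12 h difference was 1.36 and 0.97, and with scan date as a block it kept its call (adjusted p = 0.0285). The call was lost without the first wild-type 12 h array or either ATF4KO 12 h array, with differences of 1.02 to 1.21.

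In wild-type cells miR-199b* was lower at 12 h of tunicamycin by -0.79 ± 0.24 (limma, adjusted p = 0.0468). It was the only tested star strand called in that comparison, in which 30.3% of the 145 miRNAs were called lower. Leaving out any 1 of 10 arrays (all but the ATF4KO 24 h pair) ended the call, with differences from -0.93 to -0.65 and adjusted p from 0.0536 to 0.159.

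The array has no miR-199b guide under that exact name. The 3p arms of Mir199a-1, Mir199a-2 and Mir199b have one identical RefSeq sequence, so the probe named miR-199a-3p cannot separate them and was used as the partner, a choice made after the values were seen. miR-199a-3p stood at 0.81 and 0.82 in untreated wild-type cells, -0.60 and -0.30 at 12 h, and 0.02 and -0.47 at 24 h. In ATF4KO cells it stood at 2.00 and 2.04, 1.51 and 1.41, and 1.56 and 0.40 in the same order. Another member of the family, miR-199a-5p, had means of -2.39 in wild-type and 0.04 in ATF4KO cells untreated, and of -3.50 and -0.88 at 12 h. Whether it adds to the signal of the miR-199b* probe was not tested, as no probe sequences are given.

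miR-199a-3p was higher in ATF4KO cells by 1.20 untreated (limma, adjusted p = 0.0377) and by 1.91 at 12 h (adjusted p = 0.0116), and fell by 1.27 at 12 h in wild-type cells (adjusted p = 0.0332). These were the directions of miR-199b*, with larger sizes. The star minus partner value changed by 0.48 ± 0.14 in wild-type cells at 12 h (adjusted p = 0.0363), and differed between genotypes by -0.45 ± 0.14 untreated (adjusted p = 0.0416) and by -0.75 ± 0.14 at 12 h (adjusted p = 0.0104). These added tests were not repeated under the other settings.

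**Figure D2:**
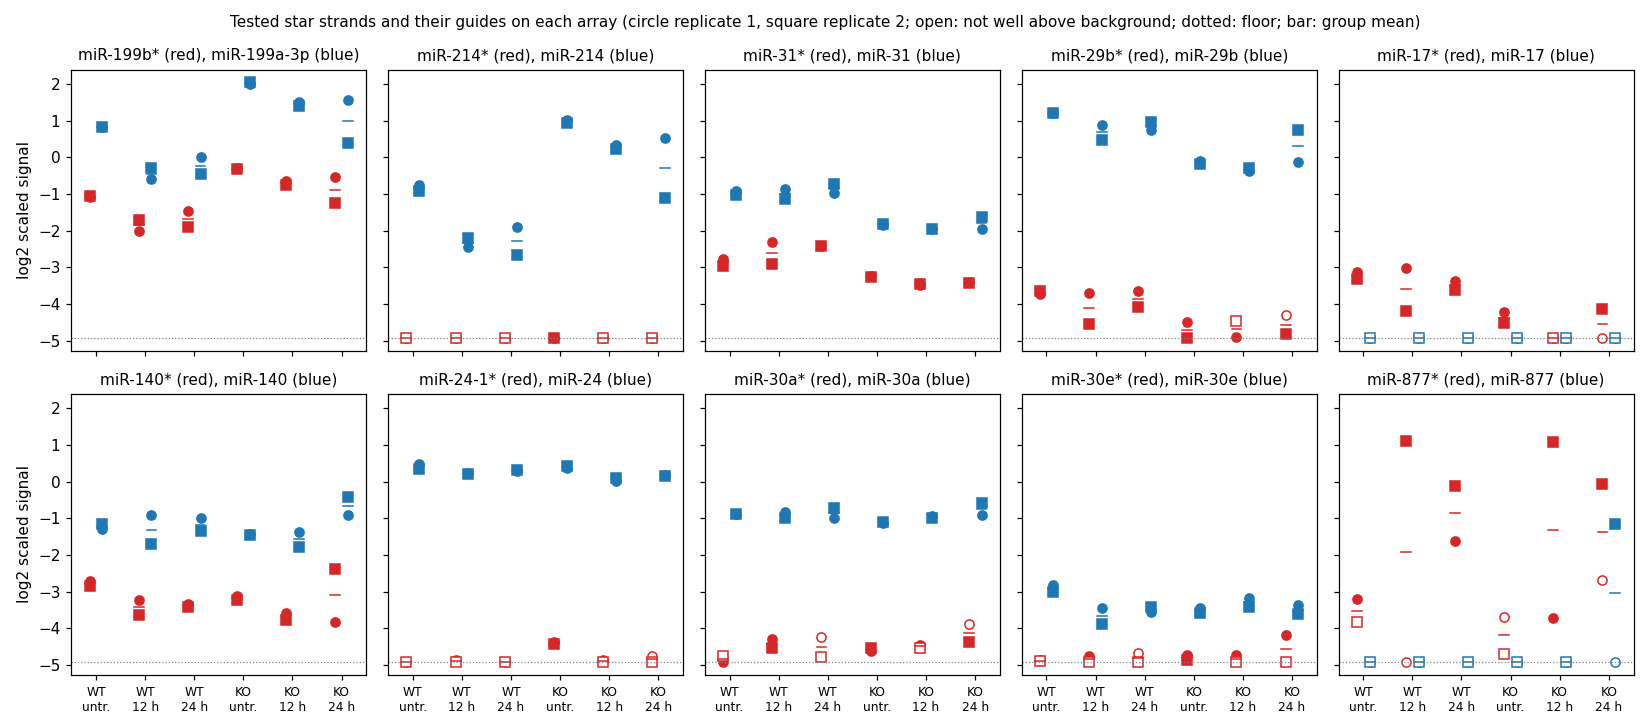
Log2 scaled signal of the 10 tested star strands (red) and their guides or partners (blue) on each array, by group; circles are replicate 1, squares replicate 2, bars group means, open symbols arrays not well above background, and the dotted line the floor at -4.93. miR-31* and miR-31 are lower, and miR-199b* and miR-199a-3p higher, in the ATF4KO groups, while miR-214* lies on the floor throughout; red and blue heights within a panel are not comparable.

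miR-17* comes from the miR-17-92 cluster, which drives proliferation. It stood at -3.13 and -3.32 in untreated wild-type cells, -3.02 and -4.18 at 12 h, and -3.37 and -3.62 at 24 h. The ATF4KO arrays gave -4.22 and -4.53 untreated, the floor on both 12 h arrays, and the floor and -4.15 at 24 h. The genotypes did not overlap within any condition.

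miR-17* was lower in ATF4KO cells at 12 h by -1.33 ± 0.39 (limma, adjusted p = 0.0483), with 1 of the 2 ATF4KO arrays well above background. The differences of -1.15 ± 0.39 untreated (adjusted p = 0.0580) and -1.05 ± 0.39 at 24 h (adjusted p = 0.144) did not pass. The 12 h call was lost without any 1 of 9 arrays (all but the second wild-type 12 h array and the ATF4KO 24 h pair), with differences from -1.33 to -0.75, and with scan date as a block (adjusted p = 0.0918).

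miR-29b, a repressor of collagens and other matrix genes, gave a like picture without a call for its star strand. miR-29b* stood at -3.74 and -3.66 in untreated wild-type cells, -3.69 and -4.55 at 12 h, and -3.65 and -4.08 at 24 h. On the ATF4KO arrays the values were -4.50 and at the floor untreated, -4.90 and -4.46 at 12 h, and -4.30 and -4.83 at 24 h. The genotypes overlapped at 12 h only.

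The difference of miR-29b* was -1.02 ± 0.34 untreated (limma, adjusted p = 0.0556), -0.55 ± 0.34 at 12 h (adjusted p = 0.340) and -0.70 ± 0.34 at 24 h (adjusted p = 0.259). Its guide miR-29b was lower in ATF4KO cells by -1.36 untreated (adjusted p = 0.0103) and -1.02 at 12 h (adjusted p = 0.0373), and the difference of -0.53 at 24 h did not pass (adjusted p = 0.289). The star minus guide value did not pass in any of the 11 comparisons.

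miR-24-1* was called in 4 comparisons, all of them resting on values at or just above the floor and all against untreated ATF4KO cells. It entered the tests only because both arrays of that group were well above background, so a difference from that group was built into its selection and these p-values support nothing. It stood at -4.38 and -4.42 in untreated ATF4KO cells, the only group with both arrays well above background. Elsewhere it ran from the floor to -4.76. The untreated ATF4KO arrays were thus above the other 10.

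The untreated difference was 0.53 ± 0.08, ATF4KO over wild type (limma, adjusted p = 0.00461). In ATF4KO cells the difference from untreated was -0.50 at 12 h (adjusted p = 0.0322) and -0.44 at 24 h (adjusted p = 0.0337, and 0.0512 with the replicate number as a block), where 1.38% of the 145 miRNAs were called lower in each comparison. Neither 24 h array was well above background. On the first of them the lowest detected value of any miRNA, -4.20, lay above both untreated values, so no least fold can be given. The difference between the 12 h responses of the genotypes was -0.53 ± 0.11 (adjusted p = 0.0182), in a comparison with 2.07% of miRNAs called lower.

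With the floor at 2 times its value all 4 differences of miR-24-1* were 0.00. With the floor at 0.5 times its value none was called. The untreated difference reversed to -2.37 with Agilent's total gene signal and to -2.03 in the deposited value table. The calls in the ATF4KO 12 h and 24 h responses were each lost without any 1 of 8 arrays (all but the untreated wild-type and the ATF4KO 24 h pairs), with differences from -0.53 to -0.47 and from -0.46 to -0.42. The response difference lost its call without the first wild-type 12 h, first untreated ATF4KO or second ATF4KO 12 h array (-0.51 to -0.50). Its guide miR-24 ran from 0.01 to 0.49 over the 12 arrays and was called in none of the 11 comparisons.

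miR-214*, of a hairpin in the Dnm3os transcript, was at the floor on all 12 arrays and was well above background only on the 2 untreated ATF4KO arrays. Its guide miR-214 ran from -2.66 to -0.77 in wild-type cells and from -1.10 to 1.00 in ATF4KO cells. miR-214 was higher in ATF4KO cells by 1.81 untreated (limma, adjusted p = 0.0269), 2.62 at 12 h (adjusted p = 0.0116) and 1.98 at 24 h (adjusted p = 0.0352). With a star strand at the floor, the star minus guide differences of -1.81, -2.62 and -1.98 are those of the guide with the sign turned, and say nothing of strand choice. The untreated value reversed to 3.86 with Agilent's total gene signal. It lost its call without any 1 untreated array (-1.88 to -1.73), the 12 h value without the first ATF4KO 12 h array (-2.56), and the 24 h value without any 1 of 8 arrays, all but the wild-type 12 h and ATF4KO 24 h pairs (-2.36 to -1.60). With scan date as a block the 24 h call was lost too (limma, adjusted p = 0.0525).

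miR-30e is a member of the miR-30 family. Its star strand ran only from the floor to -4.20. miR-30e* stood at -4.87 and -4.90 in untreated wild-type cells, -4.76 and the floor at 12 h, and -4.68 and the floor at 24 h. In ATF4KO cells it stood at -4.73 and -4.88, -4.74 and the floor, and -4.20 and the floor.

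No comparison of miR-30e* passed. miR-30e stood at -2.83 and -3.0001 in untreated wild-type cells and -3.44 and -3.89 at 12 h, and at -3.46 and -3.58 in untreated ATF4KO cells and -3.17 and -3.42 at 12 h. It fell by 0.75 in wild-type cells at 12 h (limma, adjusted p = 0.0197) and was lower in untreated ATF4KO cells by -0.60 (adjusted p = 0.0383). Its 12 h response differed between genotypes by 0.97 (adjusted p = 0.0346).

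The star minus guide value of miR-30e was accordingly higher by 0.79 ± 0.19 in wild-type cells at 12 h (limma, adjusted p = 0.0209, in a table of 151 rows with 30.5% called). It was higher in untreated ATF4KO cells by 0.68 ± 0.19 (adjusted p = 0.0294, 32.5% called), and its 12 h response differed by -1.04 ± 0.27 (adjusted p = 0.0349, 22.5% called). miR-30e* had entered the tests only through the untreated ATF4KO group, on which both of these tests draw, so their p-values support nothing. miR-30e* itself differed by 0.08 and -0.07 in them, so the values are largely those of the guide with the sign turned. The wild-type value turned to -0.68 in the deposited value table. All 3 calls were lost with normexp, with quantile normalization, with the 75th percentile of every miRNA, and with the floor at 0.5 times its value (0.51, 0.68 and -0.82). The wild-type call was lost without either untreated wild-type array or the second wild-type 12 h array (0.65 to 0.85). The untreated call was lost without any untreated or ATF4KO 12 h array (0.62 to 0.75), and the third without any of these 6 arrays or the second wild-type 12 h array (-1.11 to -0.90). With scan date as a block, the untreated difference (adjusted p = 0.0530) and the response difference (adjusted p = 0.0660) lost their calls.

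Over the 6 pairs and 11 comparisons, 6 of 66 star minus guide tests passed, all in the miR-30e and miR-214 pairs. Of the 151 rows of that table, 30.5% and 14.6% were called in the wild-type 12 h and 24 h responses, 1.32% and 2.65% in those of ATF4KO cells, 32.5%, 24.5% and 15.2% between genotypes untreated, at 12 h and at 24 h, 22.5% and 7.95% in the 12 h and 24 h response differences, and 0% between 12 and 24 h. In these 2 pairs the star strand lay at or near the floor. No test passed for miR-140, miR-29b, miR-30a or miR-31.

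**Figure D3:**
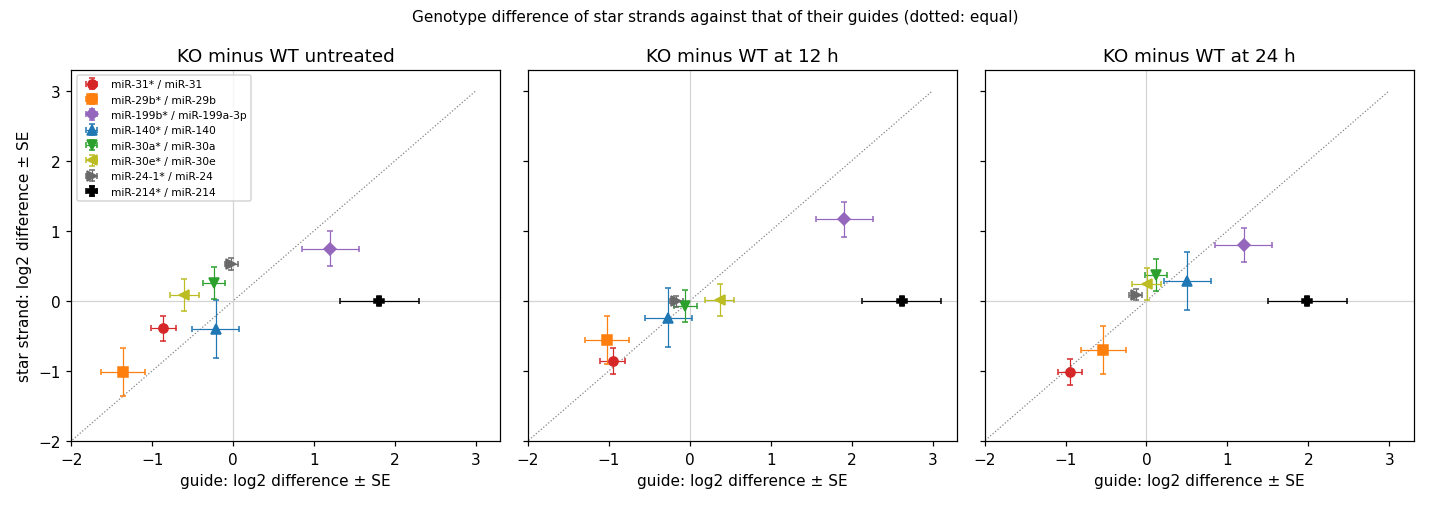
Log2 difference between ATF4KO and wild-type cells of 8 star strands (vertical axis) against that of their guides or partners (horizontal axis), with standard errors, untreated and at 12 and 24 h; the dotted line marks equal differences. The pairs of miR-31 and miR-29b lie low on both axes and miR-199b* high on both, while miR-214* lies at 0 where its guide differs by 1.81 to 2.62.

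miR-140, known from cartilage, gave a star strand detected on every array. miR-140* stood at -2.70 and -2.86 in untreated wild-type cells, -3.23 and -3.64 at 12 h, and -3.35 and -3.43 at 24 h. The ATF4KO arrays gave -3.13 and -3.24, -3.58 and -3.77, and -3.83 and -2.38. The second ATF4KO 24 h array gave the highest value of all and the first the lowest.

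No comparison of miR-140* passed, with differences from 0.04 to 0.69 in size. Its guide miR-140 was also highest on the second ATF4KO 24 h array, at -0.41, and was called in no comparison.

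miR-30a* ran from the floor to -3.89 and was called in no comparison. Its level was -4.93 and -4.75 in untreated wild-type cells, -4.30 and -4.55 at 12 h, and -4.23 and -4.78 at 24 h. In ATF4KO cells it was -4.63 and -4.54, -4.45 and -4.55, and -3.89 and -4.39. Its smallest p was in the ATF4KO 24 h response, 0.45 ± 0.23 (limma, adjusted p = 0.368), and miR-30a passed in none either.

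Tunicamycin gave few calls among the star strands. Beyond miR-199b* and miR-24-1*, none passed in any of the 4 responses. In the wild-type 24 h response 0 of 10 were called by limma against 15.2% of the 145, and 2 had an unadjusted p under 0.05: miR-199b* at -0.62 ± 0.24 (adjusted p = 0.124) and miR-31* at 0.45 ± 0.18 (adjusted p = 0.131). Between 12 and 24 h, 0 of 10 star strands and 0% of all 145 miRNAs were called by limma in either genotype, and no star strand had an unadjusted p under 0.05. The difference of the 24 h responses was called for 0 of 10 by limma, against 8.28% of the 145, and 2 had an unadjusted p under 0.05.

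The median response of the tested star strands was 0.02 at 12 h and 0.00 at 24 h in wild-type cells, beside -0.32 and -0.17 over all tested miRNAs. In ATF4KO cells it was -0.12 and 0.04, beside 0.06 and 0.19. miR-214* was at the floor on all 12 arrays and counts as 0 in each star median. miR-24-1*, miR-30a* and miR-30e* lay at or near the floor in untreated wild-type cells (means of -4.93, -4.84 and -4.88) and could hardly fall. The medians therefore do not show that star strands responded less than other miRNAs.

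miR-877* varied most between replicates among the tested star strands, and within each tunicamycin group replicate 2 was the higher array. miR-877 is a mirtron, cut from a short intron of Abcf1 by the spliceosome in place of Drosha, and its 3p strand is the intron's pyrimidine-rich end. miR-877* stood at -3.20 and -3.84 in untreated wild-type cells, at the floor and 1.09 at 12 h, and at -1.61 and -0.12 at 24 h. On the ATF4KO arrays the values were -3.69 and -4.70 untreated, -3.72 and 1.07 at 12 h, and -2.68 and -0.05 at 24 h.

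All 4 replicate 2 tunicamycin arrays were above the other 8, whereas replicate 2 was the lower array in both untreated groups. Within replicate 1, the 24 h arrays were above the untreated ones in both genotypes. The gap between replicates was 6.02 at 12 h in wild-type cells and 4.79 in ATF4KO cells, and 1.49 and 2.63 at 24 h. On the unscaled arrays, the 4 probes of miR-877* gave 215.5 to 382.8 units on the second wild-type 12 h array and 2.5 to 4.0 on the first. The 4 responses were 1.60 to 2.87 with a standard error of 2.23, and none passed (limma, adjusted p from 0.477 to 0.685). Its guide miR-877 was at the floor on all arrays but the second ATF4KO 24 h array, where it was -1.17.

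The same arrays were the high ones for 4 star strands that did not enter the tests. miR-485* stood at -1.23 and -2.78 on the second wild-type 12 h and 24 h arrays and at -1.15 and -2.34 on the second ATF4KO ones, and at the floor on the other 8. let-7d* stood at -1.54, -3.19, -1.58 and -2.86 on those 4 arrays, miR-483* at -2.22, -3.44, -2.38 and -3.23, and let-7b* at -2.99, -4.06, -2.78 and -3.28. The guides let-7b and let-7d, detected on all 12 arrays, did not share this pattern: let-7b ran from 0.38 to 1.27 and let-7d from -0.06 to 0.72.

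**Figure D4:**
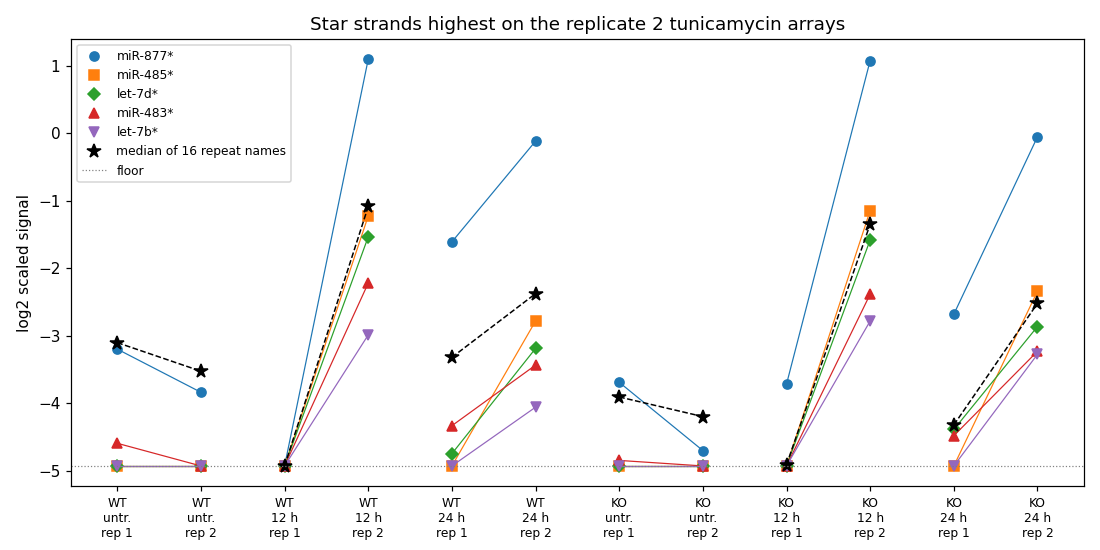
Log2 scaled signal of 5 star strands on each array, and the median of the 16 tested repeat-family names (black stars); lines join the 2 replicates of a group and the dotted line is the floor at -4.93. All 5 and the median are higher on replicate 2 than on replicate 1 in each of the 4 tunicamycin groups, and lower or equal in the untreated groups.

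The 16 tested names of the left-out repeat families moved on the same arrays. Their median was 3.84 and 3.56 higher on replicate 2 at 12 h in wild-type and ATF4KO cells, and 0.94 and 1.80 at 24 h. Over all tested miRNAs the median gap was 0.31, 0.63, 0.10 and 0.43. The part of scan date in these star strands was not tested, since date, replicate and hybridisation cannot be told apart.

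By a rule chosen after the values were seen, a name was counted where replicate 2 was higher by at least 0.5 in all 4 tunicamycin groups. These 5 star strands met it, but let-7b*, let-7d* and miR-485* were detected on replicate 2 tunicamycin arrays alone, so their pattern follows from how they came to be counted as detected. Among tested names, 1 of 10 star strands (10.0%) met it, near the 9.66% of all 145, and so did 8 of the 16 repeat names and none of the 19 guides and partners of the detected star strands. No tested miRNA was lower by as much in all 4.

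The same 5 star strands hold the longest runs of pyrimidines (C or U, on the printed strand) among the 18 with a sequence: 19 bases in miR-877*, 13 in miR-483*, 10 in miR-485* and 7 in let-7b* and let-7d*. The longest run in the other 13 was 6. Of 1674 distinct mouse mature sequences in the RefSeq table, 15.9% hold a run of at least 7 and 1 a run of 19. Among 24 other tested miRNAs whose name is in the table, 4 hold such a run and 1 of those 4 met the replicate 2 rule. The rule was met by 4 of the 24 in all, 3 of them without such a run. let-7b*, let-7d* and miR-485* were among the 18 only through replicate 2 tunicamycin arrays, so their match was built into the selection. Both sides of this comparison were seen in the same data, and it carries no test.

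Single arrays stood out for other star strands. miR-135a* was at -1.18 on the second ATF4KO 24 h array and at the floor on the other 11, and miR-299* at -3.98 on that array alone. let-7g* lay above the floor on the second 12 h arrays only, at -4.04 in wild-type and -4.01 in ATF4KO cells. miR-674* was at -4.39 and -4.37 in untreated wild-type cells and at the floor elsewhere, and miR-186* and miR-24-2* were at the floor throughout.

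The spread between replicates sets what could be seen. The pooled SD of the tested star strands other than miR-877* (n = 2 arrays a group) was 0.09 in untreated wild-type and 0.13 in untreated ATF4KO cells, 0.40 and 0.13 at 12 h, and 0.21 and 0.49 at 24 h. With miR-877* kept in, it was 0.16 and 0.26, 1.40 and 1.08, and 0.39 and 0.75 in the same order. Over all tested miRNAs, miR-877* included, it was 0.15 and 0.13, 1.22 and 1.105, and 0.51 and 0.95. The values without miR-877* therefore do not show that star strands varied less than other miRNAs. Scale differed too: the 75th percentile ran from 203.5 units on the first ATF4KO 24 h array to 791.2 on the second untreated ATF4KO array.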

How the data were processed

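Total RNA was hybridised in 1 colour. Per the file headers the authors deposited Agilent Feature Extraction output with intensity values per spot, and per the submitters' processing notes the version was 10.7.1.1. A deposited value table holds log2 total gene signal, with column medians of 5.44 to 6.90 and no centring. Genome build and probe sequences are not given in the sources used here.

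Spots flagged as outliers and control spots were left out, the processed signal was averaged per probe and summed per miRNA (20 spots a star strand, none saturated), divided by the 75th percentile of the 82 miRNAs always detected, floored at 0.0328 and logged. limma 3.58.1 in R 4.3.3 fitted 6 group means over 145 miRNAs (6 residual df), with 11 comparisons. Star minus guide values entered the same fit as extra rows. The signal is not a count, and precision is limited by 2 arrays a group. Each p-value rests on the spread of that miRNA pooled over all 6 groups. An untreated comparison therefore also carries the spread of the tunicamycin arrays. On simulated data for the 12 h genotype comparison (145 miRNAs), 59.8% of log2 changes of 1 were recovered and 4.59% of calls were unchanged miRNAs. The simulation gave each miRNA the same spread in every group, with independent arrays and no floor. In the data the pooled SD was 0.15 in untreated wild-type cells and 1.22 at 12 h. Same-numbered 12 h arrays of the genotypes deviated together (correlation 0.95). These rates therefore need not hold for the real comparison.

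Every tested star strand is named, with full statistics for those past the threshold or the smallest p of a comparison. Detected but untested star strands are named with their number of arrays. The members, lists and marker sets were chosen with earlier results of these data known. Alternatives covered background, signal summary, scaling, floor, filter, fit, blocks and left-out arrays. Normexp used the median spot signal and its background.

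Same-numbered arrays deviated together within the untreated and within the tunicamycin groups (correlations of 0.68 to 0.95). Between untreated and tunicamycin groups they deviated oppositely (-0.54 to -0.24), so the numbers were not taken to pair arrays across slides. Within a slide, same-numbered arrays shared a scan date, a pairing that the main fit leaves out. The fit with scan date as a block takes it in for the genotype and time comparisons.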

Additional observations from a re-analysis of the deposited data

Results flagged for a closer look

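The 12 h response of miR-24-1* differed between the genotypes by -0.53 (limma, adjusted p = 0.0182): it was lower than untreated in ATF4KO cells and stood at or within 0.07 of the floor on the wild-type arrays. It had entered the tests only through the untreated ATF4KO group, where it was high, and so had miR-30e*. The 12 h response of miR-30e* minus miR-30e differed by -1.04 (limma, adjusted p = 0.0349), with the star strand near its floor. At 24 h, miR-31* was above its untreated level on both wild-type arrays and below it on both ATF4KO arrays; the response difference of -0.62 did not pass the test of the difference (limma, adjusted p = 0.188).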

How the results depend on the processing

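Counts of called star strands rested on the processing. In the order wild-type 12 h, ATF4KO 12 h and 24 h responses, genotype untreated, at 12 h and at 24 h, and 12 h response difference, the counts were 1, 1, 1, 1, 3, 1 and 1, and 6 star minus guide tests passed. All 7 counts and the pair count fell to 0 with normexp, with quantile normalization and with a 75th percentile taken over every miRNA. Under quantile normalization and that 75th percentile, 0 of all 145 miRNAs were called between genotypes at 12 or 24 h. The main fit called 21 higher and 15 lower at 12 h, and 11 each way at 24 h. In the wild-type 12 h response, 5 and 0 were called lower, against 44. The star counts there fell along with calls over all miRNAs. The ATF4KO 12 h response held 2 and 1 lower calls, against 2. Median scaling gave 0 except for the untreated genotype comparison, and 1 pair test. Of all miRNAs, it called 3 lower in the wild-type 12 h response, and 9 higher and 11 lower between genotypes at 12 h. A floor of 0.5 or 2 times gave 0 in both ATF4KO responses, the wild-type 12 h response, the untreated comparison and the response difference, and 0.5 times the floor 3 pair tests. Total gene signal gave 0 in the wild-type 12 h response and the treated genotype comparisons and 1 in the 24 h response difference. The deposited table gave the same and 1 in the wild-type 24 h and 2 in the ATF4KO 24 h response. The mean of log2 probes gave 0 in the 12 h responses, the ATF4KO 24 h response and the 12 h response difference, and 2 untreated. Without scaling the wild-type 24 h, ATF4KO 12 h and 24 h responses gave 2, 2 and 5, and the untreated comparison 2. Over all 145 miRNAs these responses held 63, 18 and 55 lower calls, against 22, 2 and 2 in the main fit. The rise in them was therefore general. Untreated, 14 of all miRNAs were called higher and 12 lower, against 10 and 37. The 24 h response difference gave 1 star strand, beside 8 higher and 7 lower calls over all miRNAs. The wild-type 12 h response and treated genotype comparisons gave 0 star strands, with 36 lower calls in that response over all miRNAs. Detection on any array gave 1 (wild-type 24 h), 2 (untreated), 2 and 2 (response differences). Detection on all arrays gave 0 in both ATF4KO responses, untreated and in the 12 h response difference, and 0 pair tests. No filter gave 1 (wild-type 24 h), 2 (untreated), 2 and 1 (response differences), 0 in the ATF4KO 24 h response and treated genotype comparisons, and 36 pair tests. A trended prior gave 1 in the 24 h response difference, and a robust prior 0 in both ATF4KO responses. Fitting only the groups compared gave 6 untreated, 1 in the wild-type 24 h response and 0 in the other responses and treated genotype comparisons. Scan date as a random block gave 0 (wild-type 12 h), 4 (untreated) and 1 (24 h response difference). Reversed values were -2.37 (total gene signal) and -2.03 (deposited table) for miR-24-1* untreated, -0.68 (deposited table) for miR-30e* minus miR-30e in the wild-type 12 h response, and 3.86 (total gene signal) and 6.36 (deposited table) for miR-214* minus miR-214 untreated. The cause was not tested. Calls over all miRNAs are given here for the scalings only, so the counts under other settings cannot be set against the general call rate.

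Leaving out 1 array at a time gave 0 to 2 star strands in the wild-type responses and both response differences, 0 to 1 in the ATF4KO 12 h and 0 to 3 in the ATF4KO 24 h response, 1 to 4 untreated, 0 to 3 in the treated genotype comparisons, 0 to 1 between 12 and 24 h in ATF4KO cells, 0 in wild-type cells, and 1 to 15 pair tests. The calls over all miRNAs in these runs are not given, so the ranges cannot be set against the general call rate. The next alternatives were chosen after seeing the data. Without the 4 replicate 2 tunicamycin arrays the counts were 4, 4, 2 and 5 in the wild-type and ATF4KO 12 h and 24 h responses, 6 untreated, 5 at 24 h, 3 and 2 in the response differences, 1 between 12 and 24 h in wild-type cells, and 25 pair tests; of all 145 miRNAs, 83, 75, 53 and 54 were called in the responses, 90 untreated, 73 at 24 h, 69 and 66 in the response differences and 22 between times, so the calls rose over all miRNAs as well. Each treated group then had 1 array, assumed to vary like the untreated ones. Adding the miR-24-1* and miR-199b* pairs gave 10 pair tests.

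With the replicate number as a block, 0 star strands were called in the ATF4KO 24 h response, 2 untreated and 2 at 12 h between genotypes, beside 2, 54 and 37 of all 145 miRNAs. Scan date as a fixed block could not be fitted to the 4 responses.

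Other scalings moved the median of all tested miRNAs by -0.87 to 0.49 (75th percentile of all), -0.41 to 0.29 (median), -0.96 to 0.35 (none) and -0.58 to 0.41 (quantile). miR-31* stayed lower and miR-199b* higher in ATF4KO cells at 12 h under every alternative run (-1.18 to -0.29, 0.71 to 1.36). Only the sign held throughout: both calls were lost with normexp, in the deposited value table, without scaling and under the other scalings. The 24 h difference of miR-31* came to -0.04 in the deposited value table. Limits are the 2 arrays a group, the slide shared by all treated arrays, the slide row shared by all arrays of a genotype, and the floor under which most star strands lie.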
